A study of Mus musculus with 15 samples.

Results

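Ribosome enrichment is the level of a gene's RNA on tagged ribosomes relative to its level in the RNA left behind, and this account concerns how it differed between obstructed and sham kidneys of the mouse. The comparison used 12 of the 15 arrays of the series, chosen by their titles: 3 arrays of each of 4 groups, which were the bound and the unbound fraction on day 0 and the bound and the unbound fraction on day 5. Day 0 kidneys came from sham surgery and day 5 kidneys from unilateral ureteral obstruction, in which the ureter of 1 kidney is tied. The remaining 3 arrays, of the bound fraction on day 2 of obstruction, have no unbound counterpart and entered only the estimate of the spread. For each gene the change in enrichment was the bound minus unbound difference on day 5 minus the same difference on day 0, on the log2 scale. A positive change is called a gain and a negative change a loss, and the change equals the day 5 minus day 0 difference of the bound fraction (the bound change) minus that of the unbound fraction (the unbound change).

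All groups, sham controls included, carried the Col1a1-eGFPL10a transgene on a C57/129sv background, in which ribosomal protein L10a fused to a green fluorescent protein is driven by a collagen 1α1 promoter and enhancer element. The labels give both sexes and a stage of P14-P300 for every group, name the bound fraction as kidney pericytes, described as periarterial fibroblasts of the medulla, and name the unbound fraction as kidney medulla. The tag therefore marks cells that had used this promoter element by the time the kidney was taken, and the labels do not say when they used it. The unbound RNA still holds untagged ribosomes of those same cells. Separate animals or pools behind the arrays of each group are not stated in the labels, so p-values measure only the spread between these samples. That spread may be technical in part, although arrays 12 and 15 of day 5 had far lower Y-linked signal than the others of their groups.

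In translating ribosome affinity purification, or TRAP, tagged ribosomes are pulled from a tissue lysate with an antibody against the tag, and the messages they carry are measured. A gene used mainly by tagged cells is higher in the bound than in the unbound fraction, and a gene used mainly by other cells is lower. Ureteral obstruction dilates and injures the tubules, brings macrophages into the interstitium, and turns pericytes and resident fibroblasts into matrix-secreting myofibroblasts that express Acta2 and fibrillar collagens. Podocytes, the filtering cells of the glomerulus, are epithelial cells outside that lineage, and endothelial cells line the capillaries that pericytes ensheathe.

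The marker genes were in part as labelled and in part not. On day 0, 20 of 34 fibroblast genes and 15 of 26 pericyte and smooth muscle genes were higher in the bound fraction, against 4.81% of all 16864 genes tested, and 4.1% of all genes were lower (limma, Benjamini-Hochberg adjusted p under 0.05). All 13 podocyte genes tested were also higher in the bound fraction on day 0, with a median of 4.21 on the log2 scale, although the labels name the medulla and podocytes sit in the cortex. Of the tubule lists, 1 of 29 proximal tubule genes, 3 of 17 loop and distal tubule genes and 3 of 21 collecting duct genes were lower in the bound fraction on day 0.

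The arrays differed in technical respects that touch every value below. The median raw intensity of an array ranged from 16.4 to 198.7. Spiked hybridization controls averaged 4259 to 5495 on most arrays and 11043 to 11777 on 4 arrays, 3 of them in the comparison: array 6 of the day 0 unbound group, array 12 of the day 5 bound group and array 15 of the day 5 unbound group. Arrays 12 and 15 also had a mean Y-linked signal of 1.93 and 1.65 (log2), against 6.73 to 9.3 on the other 10 arrays. Leaving out the bright arrays therefore also takes out both arrays with low Y-linked signal. No day 0 array had a low Y-linked signal (6.73 to 7.73), so the days compared were not balanced in it, and its part in the results was not tested. Array 11, in the day 5 bound group, had the lowest median intensity and a Gapdh 5′ to 3′ ratio of 0.0269, against 0.178 to 0.583 elsewhere. The day 0 bound group has no bright array, so no value within the bright arrays alone could be had, and the part of brightness in the results was not tested beyond leaving these arrays out and fitting brightness as a covariate. Intensities at or under the highest negative control of an array, which lay between 3.41 and 5.09 on the log2 scale, are at background, and 3043 genes (18%) had at least 1 of the 4 groups there on all its arrays. Quantile normalization gave all genes a median change in enrichment of 0.09, whereas centring the arrays on their medians gave 0.53, so list medians are set beside the median of all genes.

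Only 3 genes, 0.0178% of those tested, passed at an adjusted p under 0.05 in the fit of all 5 groups, and all 3 were gains. At an unadjusted p under 0.05 there were 1356 gains (8.04% of all genes) and 1039 losses (6.16%), and with centred arrays 2546 gains and 385 losses among 16860 genes. The standard error of a change in enrichment had a median of 0.56, against 0.40 for a bound change. The day 2 bound arrays, which enter only the spread, had a median standard deviation of 0.614, against 0.246 to 0.428 in the 4 groups compared. With only those 4 groups fitted, 194 genes passed as gains (1.15%) and 144 as losses (0.854%), including these 3. With the 3 bright arrays left out as well, that count was 1. With 1 array left out at a time, the 338 ranged from 31 without array 4 of the day 0 unbound group to 926 without array 1 of the day 0 bound group. Values below that rest on this narrower fit say so.

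Kcnmb4, a regulatory subunit of calcium-activated potassium channels, had the largest fitted change of the 3. Its normalized intensities (log2) were 1.50, 1.19 and 1.58 in the day 0 bound fraction and 2.58, 3.86 and 3.28 in the day 0 unbound fraction. They were 5.64, 5.21 and 5.06 in the day 5 bound fraction and 1.16, 1.28 and 1.94 in the day 5 unbound fraction. Every day 5 bound array was above its negative controls and every array of the other 3 groups was at or below them. The fitted gain was 5.66 ± 0.56 (SE; limma adjusted p = 0.00441), from a fitted bound rise of 3.89 and a fitted unbound change of −1.78. Both unbound groups were at background, so the unbound part has no measured size. With values set to at least the negative controls the bound rise was at least 1.26, and the change in enrichment was 1.58 with an adjusted p of 0.123. The unbound part of that 1.58 is only the difference between the negative controls of the arrays.

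Cenph encodes a protein of the inner kinetochore, on which chromosomes attach to the spindle. It read 1.79, 1.49 and 1.79 in the day 0 bound fraction and 3.93, 3.87 and 4.34 in the day 0 unbound fraction. On day 5 it read 8.25, 7.72 and 8.60 in the bound fraction and 7.29, 7.10 and 7.20 in the unbound fraction. Cenph was thus above background on all 6 arrays of day 5, and each bound array was above each unbound one, with an enrichment of 1.00. It rose by 6.50 in the bound fraction and by 3.15 in the unbound fraction, for a fitted gain of 3.35 ± 0.43 (adjusted p = 0.0207). On day 0 the 3 bound arrays and 2 of the 3 unbound arrays were at background, so its enrichment then has no measured size. Setting values to at least the negative controls makes the bound rise at least 4.15 and the change 1.24 (adjusted p = 0.171). Without the bright arrays its change was 3.00 (adjusted p = 0.282).

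The third, C130073F10Rik, is a clone-named gene of unknown role, named because it completes the count. Its day 0 arrays read 2.29, 2.36 and 1.63 bound and 3.75, 4.32 and 3.85 unbound, and its day 5 arrays read 4.24, 3.10 and 3.28 bound and 1.93, 1.61 and 1.47 unbound. All 4 groups were at the level of the negative controls, so its fitted gain of 3.75 ± 0.45 (adjusted p = 0.0185) has no measured level behind it.

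Whether changes came from the bound or the unbound fraction was read from both parts. Among the 194 gains with 4 groups fitted, the bound change was the larger part in 150 (77.3%), and the parts had opposite signs in 109 (56.2%). The bound change alone passed in 100 of them as a rise, the unbound change alone passed in 32 as a fall, both rose in 38, and a bound rise met an unbound fall in 22. Their median bound change was 1.74 and their median unbound change −0.34. Among the 144 losses, the bound change was the larger part in 104 (72.2%), and the parts had opposite signs in 77 (53.5%). A bound fall alone passed in 91, an unbound rise alone in 24, and a bound fall met an unbound rise in 13. Their median bound change was −1.55 and their median unbound change 0.40. In the same fit of 4 groups, over all genes, the bound fraction rose for 18.4% and fell for 13.7%, and the unbound fraction rose for 9.2% and fell for 7.1%, so more genes passed in the bound fraction to begin with. The bound change was also the larger part in 10245 of all 16864 genes. Median standard deviations were 0.428 and 0.405 in the bound groups of day 0 and day 5, against 0.260 and 0.246 in the unbound groups.

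The sum of the bound and unbound change tests which part is larger where their signs differ. Among the 109 such gains with 4 groups fitted, the bound part was larger by this test in 33 and the unbound part in 14, and the sum did not pass in 62. Among the 77 such losses the bound part was larger in 36 and the unbound part in 3, and the sum did not pass in 38. Of the gains 45 (23.2%) had a group at background, and of the losses 13 (9.03%). In bulk fractions, fewer cells of a type and less of a message per cell cannot be told apart.

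**Figure D1:**
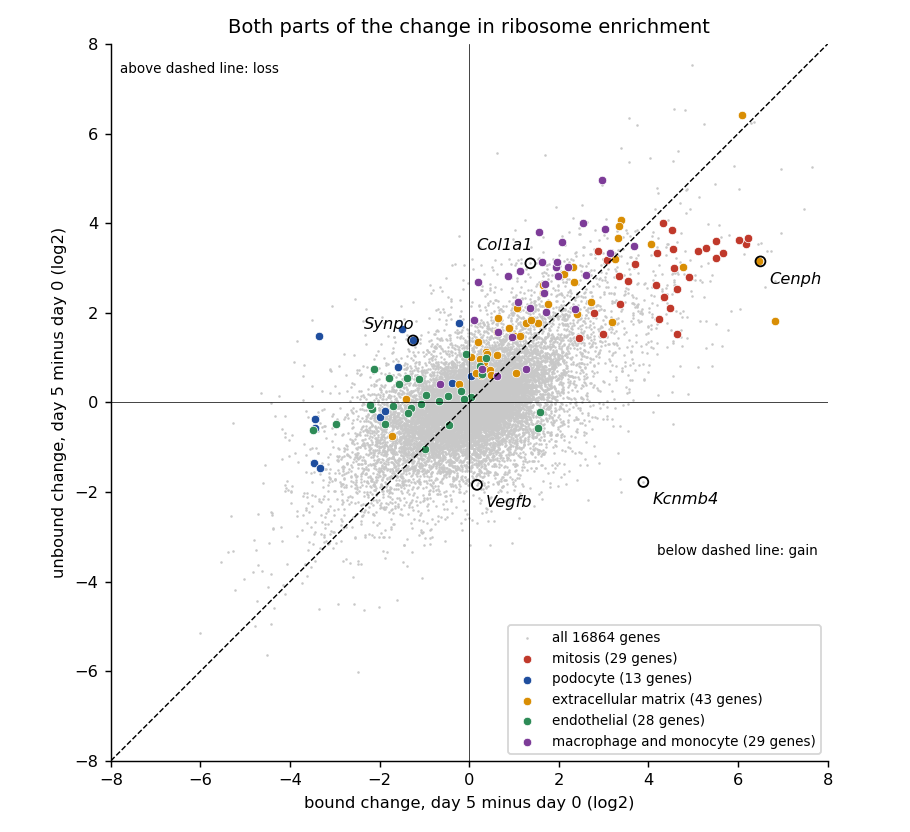
Bound change (x axis) against unbound change (y axis), both day 5 minus day 0 on the log2 scale, for the 16864 genes tested in grey and for 5 gene lists in colour. The dashed line marks equal change: most mitosis genes lie below it on the right, all 13 podocyte genes lie above it on the left or near 0, and Kcnmb4 lies alone at lower right. The matrix gene Fbn2 lies under the circle of Cenph.

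Col1a1, Col1a2 and Col3a1, the chains of the main fibrillar collagens, rose in both fractions and had negative changes in enrichment. Col1a1, whose promoter drives the tag, read 11.54, 11.59 and 11.70 in the day 0 bound fraction and 8.95, 9.05 and 9.56 in the day 0 unbound fraction. On day 5 it read 12.92, 13.07 and 12.95 bound and 12.38, 12.31 and 12.17 unbound. No fraction overlapped another, and the distance between bound and unbound shrank from 5.38-fold to 1.61-fold. Col1a1 rose by 1.36 in the bound fraction and by 3.10 in the unbound fraction, and its change in enrichment was −1.74 ± 0.27 (adjusted p = 0.0592 with 5 groups and 0.0199 with 4). With centred arrays it was −0.68.

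Col1a2, the partner chain of type I collagen, followed the same course. It read 12.80, 12.78 and 12.83 bound and 10.38, 10.37 and 10.79 unbound on day 0, then 13.48, 13.36 and 13.21 bound and 12.53, 12.59 and 12.55 unbound on day 5. Its bound fraction rose by 0.55 and its unbound fraction by 2.04, for a change of −1.50 ± 0.25 (adjusted p = 0.0647 with 5 groups and 0.0211 with 4), or −0.37 with centred arrays. Col3a1, the type III collagen that accompanies type I in scars, rose by 1.02 bound and 2.36 unbound, for a change of −1.34 ± 0.27 (adjusted p = 0.0904 with 5 groups), or −0.20 with centred arrays. Its enrichment of 1.71 on day 0 passed and its 0.37 on day 5 did not.

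Of the 43 genes tested of the matrix list, which does not hold Col1a1 and Col1a2, 24 rose and 1 fell in the bound fraction. In the unbound fraction 33 rose. Over all genes in this fit of 5 groups, on which the counts for each list rest, the bound fraction rose for 13.7% and fell for 9.99%, and the unbound fraction rose for 6.43% and fell for 3.93%. The median bound change was 1.12 and the median unbound change 1.78. The change in enrichment was negative for 34 of the 43, against 45.7% of all genes, with a median of −0.50 against 0.09 over all genes. At an unadjusted p under 0.05 there were 8 losses and 4 gains. With 4 groups fitted, 2 genes of the list passed as gains and none as a loss. Genes higher in the bound fraction numbered 31 on day 0 and 18 on day 5. With centred arrays the median of the list was 0.27, above 0 but below the 0.53 of all genes. Fn1, the fibronectin of the provisional matrix, rose by 2.11 in the unbound fraction, its bound change of 1.06 did not pass, and its change in enrichment was −1.05 ± 0.56, or −0.21 with centred arrays.

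A few matrix genes stood on the other side. P4ha3, a subunit of the prolyl hydroxylase that stabilizes collagen, read 3.10, 3.28 and 1.18 bound and 4.32, 3.76 and 4.02 unbound on day 0. On day 5 it read 9.86, 8.19 and 9.97 bound and 6.10, 5.29 and 6.14 unbound, so that only day 5 separated the fractions with the bound arrays high. Its bound fraction rose by 6.82, and its change was 5.01 ± 0.98 (adjusted p = 0.0859 with 5 groups and 0.0265 with 4), or 3.76 with values floored at background. Fbn2, a fibrillin of microfibrils, read 8.38 to 9.52 bound and 5.88 to 7.07 unbound on day 5 from values of 3.62 or less on day 0, for a change of 3.32 ± 0.78 that passed with 4 groups (adjusted p = 0.0459). Col5a3, a chain of type V collagen, rose by 4.76 bound and 3.03 unbound, for a change of 1.74 ± 0.59 that did not pass in either fit. Col24a1, a minor fibrillar collagen outside the list, read 5.47, 7.32 and 5.82 on the day 5 bound arrays. It read at most 3.00 on day 0, where both fractions were at background. Its fitted change was 4.07 ± 0.67 (adjusted p = 0.0592 with 5 groups), or 2.14 with floored values.

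Fibroblast genes divided in the same manner. Of 34, 14 rose and 1 fell in the bound fraction and 13 rose in the unbound fraction, with medians of 1.01 and 1.00. The change in enrichment was negative for 22 of the 34, against 45.7% of all genes. Its median was −0.34, or −0.09 without array 5 and −0.18 without array 11. With centred arrays it was 0.27, where all genes stood at 0.53. At an unadjusted p under 0.05 there were 7 losses and 3 gains. With 4 groups fitted, 3 genes of the list passed as losses and none as a gain. Col1a1, given above, had the most negative change of this list, whereas the genes named next had positive changes. Genes higher in the bound fraction numbered 20 on both days. Fap, a surface protease of activated fibroblasts, read 10.62, 10.77 and 10.88 bound and 7.83, 7.39 and 7.75 unbound on day 5, against 1.78 to 4.96 bound and 1.98 to 4.32 unbound on day 0. It rose by 7.48 and 4.31, and its change of 3.17 ± 0.98 did not pass in either fit, with 1 day 0 array pair reaching into the day 5 range. Fbln2, a fibulin of elastic fibres, had a change of 2.92 ± 0.85. Cd248, a sialomucin of stromal and perivascular cells also called endosialin, read 7.81 to 8.60 bound and 5.87 to 6.46 unbound on day 0, and 10.18 to 10.34 and 6.99 to 7.11 on day 5. Its bound fraction rose by 2.01 and its change was 1.03 ± 0.47 (unadjusted p = 0.0485, adjusted p = 0.35).

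Of 26 pericyte and smooth muscle genes, 8 rose and 3 fell in the bound fraction and 9 rose in the unbound fraction. The change in enrichment was negative for 17 of the 26, against 45.7% of all genes. Its median was −0.35, or 0.35 with centred arrays, where all genes stood at 0.53. At an unadjusted p under 0.05 there were 5 losses and 1 gain. Every day 5 bound minus unbound difference was below every day 0 difference for 6 of the 26, against 5.67% of all genes. Acta2, the smooth muscle actin of myofibroblasts, read 12.40, 12.86 and 12.79 bound and 10.65, 10.51 and 10.81 unbound on day 0, then 13.46, 13.65 and 13.70 bound and 12.70, 12.37 and 12.90 unbound on day 5. It rose by 0.92 and 2.00, and its change of −1.08 ± 0.30 did not pass and turned to 0.05 with centred arrays. Tagln, another actin-binding smooth muscle protein, named after its values were seen because it passed with 4 groups (adjusted p = 0.0448), had a change of −1.29 ± 0.31, or −0.20 with centred arrays. Pdgfrb, the receptor that marks pericytes, rose by 1.90 in the unbound fraction for a change of −1.04 ± 0.45, or −0.11 with centred arrays.

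Individual genes of contractile cells differed in direction. Abcc9, a subunit of the potassium channel of pericytes, fell by 1.26 in the bound fraction while its unbound change was 0.40, for a change of −1.65 ± 0.51. Myh11, the smooth muscle myosin, read 10.58, 11.99 and 12.72 bound and 6.91 to 7.51 unbound on day 0, and 9.93, 10.68 and 9.67 bound and 7.54 to 7.89 unbound on day 5. Its bound arrays of the 2 days overlapped, and its change was −2.05 ± 1.14. Cnn1, a calponin of contractile cells, went the other way with a bound rise of 5.51 and a change of 3.76 ± 1.66, on day 0 values that ran from 1.27 to 5.97. None of these changes in enrichment passed in either fit.

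The podocyte list had the lowest median of the 31 lists. All 13 of its genes tested had a negative change, with a median of −2.11, and 11 had an unadjusted p under 0.05. In the bound fraction 10 of 13 fell and in the unbound fraction 3 of 13 rose, and the median bound and unbound changes were −1.89 and 0.43. The median enrichment was 4.21 on day 0 and 1.74 on day 5, and genes higher in the bound fraction numbered 13 on day 0 and 6 on day 5. Summed over the 13 genes, linear intensity ran from 36613 to 70776 on the day 0 bound arrays and from 13418 to 25715 on the day 5 bound arrays, and from 5595 to 6741 and from 8068 to 8798 on the unbound arrays. The bound fractions of the 2 days did not overlap, and the day 5 bound arrays stayed above the unbound ones. With centred arrays the median was −1.61.

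Synpo, the actin-associated protein synaptopodin of podocyte foot processes, came nearest to passing among the losses. It read 13.03, 12.31 and 12.48 bound and 9.48, 9.21 and 9.37 unbound on day 0. On day 5 it read 11.71, 10.90 and 11.46 bound and 10.63, 10.85 and 10.73 unbound. The bound arrays fell below all their day 0 values and the unbound arrays rose above all of theirs, by 1.25 and 1.38. Its change was −2.64 ± 0.38 (adjusted p = 0.0546 with 5 groups and 0.0154 with 4).

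Plce1, a phospholipase needed for podocyte development, had the same form, with a bound fall of 1.51, an unbound rise of 1.64 and a change of −3.15 ± 0.58 (adjusted p = 0.071 with 5 groups and 0.0199 with 4). Wt1, the transcription factor that maintains podocytes, read 12.42, 11.72 and 11.49 bound on day 0 and 10.85, 9.51 and 10.48 on day 5, against 5.99 to 6.65 and 7.00 to 7.23 unbound. Only its bound fall of 1.60 passed, and it stood 46.9-fold higher in the bound fraction on day 0 and 8.91-fold higher on day 5. Its change was −2.40 ± 0.50 and passed with 4 groups (adjusted p = 0.0448).

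For other podocyte genes the size of the change leaned on array 11. Ptpro, a receptor phosphatase of the podocyte surface, read 9.77, 6.04 and 8.63 on the day 5 bound arrays, with array 11 lowest, and 12.46, 11.08 and 10.92 on day 0. Its change was −4.83 ± 1.17, or −3.78 without array 11. Nphs1, the slit diaphragm protein nephrin, read 8.10, 3.52 and 6.68 on day 5 bound arrays, again lowest on array 11, and its change moved from −2.11 ± 1.47 to −0.82 without that array. Lmx1b, a podocyte transcription factor, and Clic3, a chloride channel protein, had changes of −3.08 ± 1.31 and −2.88 ± 1.22, or −1.93 and −1.75 without it. The median of the list was −1.51 without array 11 and −2.50 without the bright arrays, and all 13 changes remained negative in both cases. The low 5′ signal of array 11 went along with these low values, and its part in them was not tested.

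All 29 mitosis genes tested rose in the bound fraction and 25 rose in the unbound fraction, with median changes of 4.48 and 3.08. The change in enrichment was positive for 27 of 29, with a median of 1.57, and 18 had an unadjusted p under 0.05. Median enrichment was −0.61 on day 0 and 1.02 on day 5, and genes higher in the bound fraction numbered 0 on day 0 and 9 on day 5. Every day 5 bound minus unbound array difference exceeded every day 0 difference for 12 of the 29, against 7.35% of all genes in that direction. The median was 2.02 with centred arrays, 1.47 without the bright arrays and 1.62 without array 11.

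None of the 29 passed with 5 groups and 5 passed with 4 groups, and these 5 are named here after that count was seen. Ccnb2, a cyclin that activates the mitotic kinase, read 4.70, 5.27 and 5.60 bound and 6.13, 5.80 and 5.93 unbound on day 0, then 10.22, 10.53 and 10.69 bound and 9.87, 9.28 and 9.09 unbound on day 5. Bound was below unbound on all day 0 arrays and above it on all day 5 arrays, for a change of 1.83 ± 0.48. Racgap1, which positions the cleavage furrow, had a change of 2.10 ± 0.48, Nuf2, an outer kinetochore protein, 2.32 ± 0.52, and Ube2c, which marks cyclins for destruction, 2.37 ± 0.55. Plk1, a kinase that drives mitotic entry, had a change of 2.37 ± 0.74. The adjusted p-values of the 5 with 4 groups lay between 0.0381 and 0.0484. Aurka and Aurkb, kinases of the spindle pole and of the midzone, had changes of 3.11 ± 0.87 and 2.40 ± 0.96 that did not pass in either fit. Bub1, a spindle checkpoint kinase, and Ndc80, the partner of Nuf2, had changes of 2.64 ± 1.07 and 2.55 ± 0.96 that did not pass either. With floored values the changes of Bub1 and Aurkb were 1.63 and 1.31.

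Division genes outside the list were also among the named gains. Cdkn3, a phosphatase of cyclin-dependent kinases, read 3.28, 3.98 and 3.12 bound and 5.38, 4.40 and 4.78 unbound on day 0, then 10.20, 9.98 and 10.13 bound and 8.54, 8.19 and 7.95 unbound on day 5. The order of the fractions was opposite on the 2 days on every array, and the change was 3.27 ± 0.53 (adjusted p = 0.0592 with 5 groups and 0.0144 with 4). Kif22, a motor protein that moves chromosome arms, rose by 4.06 bound and 1.65 unbound, for a change of 2.42 ± 0.43 (adjusted p = 0.0647 with 5 groups). Psrc1, a microtubule-binding protein of the spindle, rose by 6.82 bound and 2.70 unbound, with a day 0 bound group at background and a change of 4.11 ± 0.82, or 1.89 with floored values.

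Genes of DNA replication had a smaller median. Of 25, 20 rose in the bound fraction and 15 in the unbound fraction, with medians of 1.95 and 1.23. The median change was 0.57 (1.04 with centred arrays), 20 were positive, and 9 had an unadjusted p under 0.05 as a gain and 1 as a loss. Cdc45 and Gins2, parts of the replicative helicase, had changes of 2.16 ± 0.56 and 1.89 ± 0.56, and Gins2, named after its values were seen, passed with 4 groups (adjusted p = 0.0244). Chaf1b, a histone chaperone of new chromatin, had a change of 2.59 ± 0.73, or 1.59 with floored values. E2f1, a transcription factor of the start of replication, was the loss among them at −1.95 ± 0.88, from day 0 bound values of 10.41, 8.32 and 7.17 that spread widely.

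Promoters of mitosis genes are known to carry CCAAT boxes, bound by NF-Y, and the cell cycle homology element, whose core is TTTGAA. In RefSeq windows of 250 bases before the start site (GRCm38.p6), CCAAT on either strand was in 22 of 27 promoters of the 25 mitosis genes matched (81.5%), against 33.8% of all 32851 promoters. TTTGAA on either strand was in 10 of those 27 (37%), against 16% of all promoters, and both were in 37%, against 5.55%. For comparison, CCAAT was in 1 of 7 podocyte promoters (14.3%) and 12 of 30 matrix promoters (40%). TTTGAA was in 2 of the 7 podocyte promoters (28.6%) and 4 of the 30 matrix promoters (13.3%). Both were in 1 podocyte promoter (14.3%) and 0 matrix promoters. These matches are a description of the letters in the windows. Of the 5 mitosis genes that passed with 4 groups, the promoters of the 4 that hold a match are shown. Capitals mark CCAAT or TTTGAA on either strand. ATTGG and TTCAAA are thus the same motifs read from the other strand, and CCAATTGG holds a match on each strand that overlap.
Ccnb2, chr9:70421555-70421804, minus strand: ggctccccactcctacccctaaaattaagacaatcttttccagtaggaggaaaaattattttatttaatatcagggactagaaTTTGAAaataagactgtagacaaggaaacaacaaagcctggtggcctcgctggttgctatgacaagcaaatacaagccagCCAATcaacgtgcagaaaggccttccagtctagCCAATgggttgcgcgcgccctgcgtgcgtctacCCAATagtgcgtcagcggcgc
Ube2c, chr2:164769679-164769928, plus strand: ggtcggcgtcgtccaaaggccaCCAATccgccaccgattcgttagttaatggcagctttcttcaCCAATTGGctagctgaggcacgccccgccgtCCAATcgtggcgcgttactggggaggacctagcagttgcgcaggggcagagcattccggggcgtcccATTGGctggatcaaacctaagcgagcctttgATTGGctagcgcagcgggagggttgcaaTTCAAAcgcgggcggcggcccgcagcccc
Plk1, chr7:122159185-122159434, plus strand: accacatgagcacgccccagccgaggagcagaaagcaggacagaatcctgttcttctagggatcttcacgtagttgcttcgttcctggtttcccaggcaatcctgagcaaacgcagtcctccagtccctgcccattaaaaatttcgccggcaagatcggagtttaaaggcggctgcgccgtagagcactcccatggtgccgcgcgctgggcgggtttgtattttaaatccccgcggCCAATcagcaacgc
Racgap1, chr15:99651657-99651906, minus strand: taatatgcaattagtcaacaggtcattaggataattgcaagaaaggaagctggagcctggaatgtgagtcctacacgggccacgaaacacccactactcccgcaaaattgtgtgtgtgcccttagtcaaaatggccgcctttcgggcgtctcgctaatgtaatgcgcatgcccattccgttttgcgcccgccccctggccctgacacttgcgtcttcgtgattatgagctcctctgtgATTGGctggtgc
The windows of Ccnb2 and Ube2c held 3 and 6 matches to CCAAT and 1 each to TTTGAA, and those of Plk1 and Racgap1 held 1 CCAAT each. The windows of Nuf2 and of Cenph, which passed in the fit of all 5 groups, held neither.

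**Figure D2:**
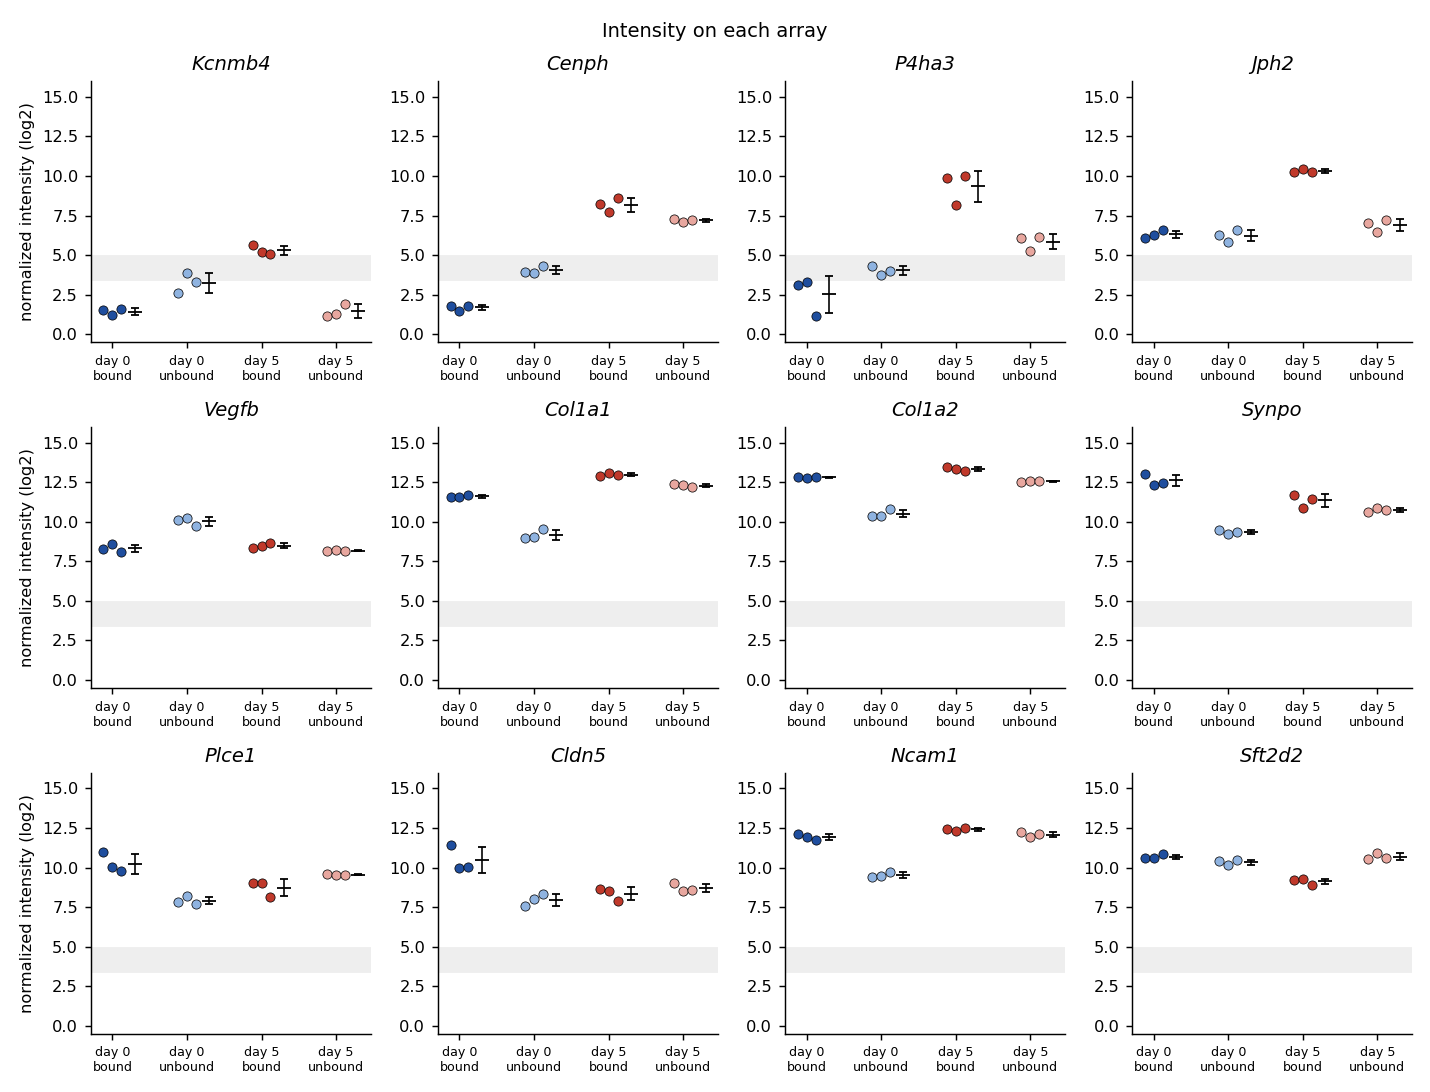
Normalized intensity (log2, y axis) of 12 genes on each array of the 4 groups, with the mean and standard deviation (n = 3) beside the points and the range of the highest negative controls in grey. Kcnmb4 leaves the grey band only on the 3 day 5 bound arrays, Col1a1 and Col1a2 rise more in the unbound than in the bound fraction, and Synpo and Plce1 fall in the bound and rise in the unbound fraction.

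Endothelial genes had negative changes with a bound part. Of 28, 10 fell in the bound fraction, and the median bound and unbound changes were −1.04 and 0.06. The change in enrichment was negative for 24, with a median of −1.13 (−0.71 with centred arrays), and 8 had an unadjusted p under 0.05. Genes lower in the bound fraction numbered 2 on day 0 and 12 on day 5, against 7.74% of all genes lower and 6.37% higher on day 5. The summed linear intensity of the list was 22616 to 37082 bound and 28245 to 32020 unbound on day 0, and 16665 to 17976 and 28231 to 32025 on day 5.

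Cldn5, a tight junction protein of endothelium, read 11.43, 9.99 and 10.05 bound and 7.58, 7.99 and 8.35 unbound on day 0, then 8.67, 8.49 and 7.91 bound and 9.04, 8.52 and 8.58 unbound on day 5. Bound stood above unbound on all day 0 arrays, and the fractions overlapped on day 5. It fell by 2.13 in the bound fraction, and its change was −2.87 ± 0.58 (adjusted p = 0.0878 with 5 groups and 0.0381 with 4). Flt1, a receptor for vascular growth factors, fell by 2.96 bound for a change of −2.48 ± 0.93, and Pecam1, an adhesion molecule of endothelial junctions, had a change of −1.93 ± 0.86. Both passed with 4 groups, with adjusted p-values of 0.0484 and 0.0291. Kdr, the main receptor of vascular growth factor signalling, and Flt4, its lymphatic relative, had changes of −2.86 ± 1.59 and −2.34 ± 0.96 that did not pass in either fit.

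Of 29 macrophage genes, 14 rose in bound RNA and 21 in unbound RNA, with medians of 1.66 and 2.81. The change was negative for 25, with a median of −0.93 (−0.30 with centred arrays), and 4 had an unadjusted p under 0.05. Adgre1, the F4/80 antigen of macrophages, read 7.54, 9.28 and 7.38 bound and 10.26, 9.85 and 9.68 unbound on day 5, from 5.35 to 7.24 and 6.65 to 6.98 on day 0. Its unbound fraction rose by 3.13 and its change was −1.51 ± 1.11. Mrc1, the mannose receptor, rose by 3.80 in the unbound fraction for a change of −2.24 ± 1.01. C3ar1, a complement receptor, rose by 2.81 there for a change of −1.95 ± 0.63. Trem2, a lipid receptor of macrophages, rose by 2.96 and 4.97 for a change of −2.01 ± 0.95, or −1.30 with floored values. Cd163, a scavenger receptor, had a change of −2.50 ± 1.26 in which neither part passed. None of the 29 genes of this list passed for the change in either fit. Cybb, the oxidase subunit of phagocytes, is not among the 29 and passed with 4 groups (adjusted p = 0.0254). It read 6.17, 7.39 and 6.45 bound and 9.36, 8.90 and 9.00 unbound on day 5. On all day 0 arrays it read 6.43 to 7.25, so that only the unbound fraction moved, by 2.54.

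**Figure D3:**
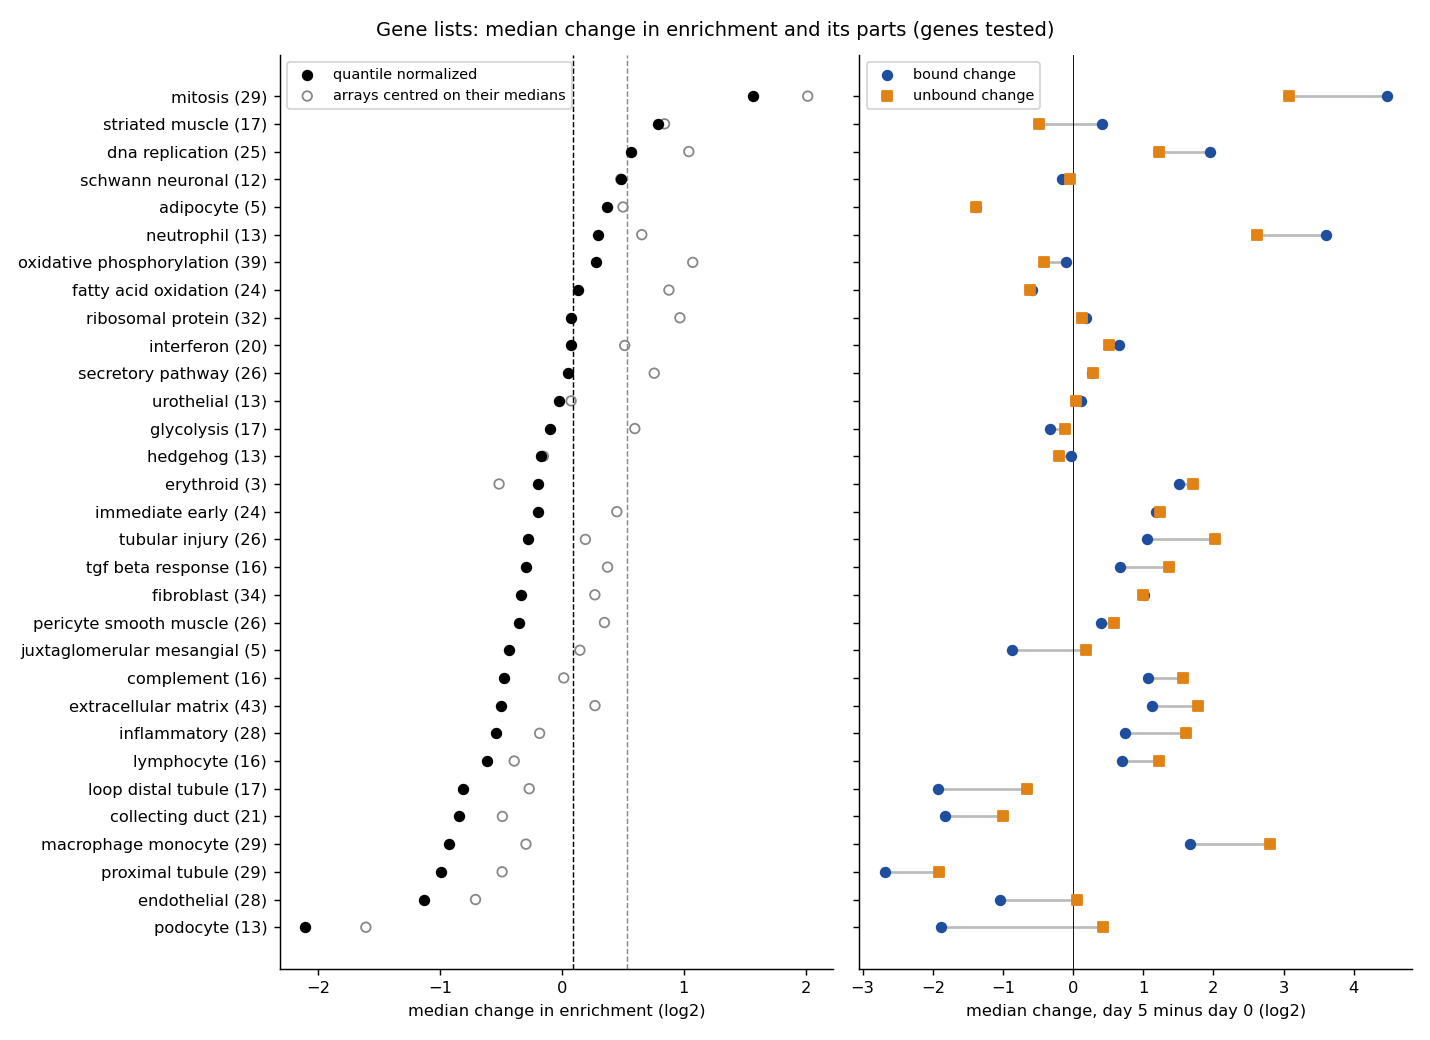
Median change in enrichment of each of 31 gene lists (left, log2; black circles quantile normalized, open circles with arrays centred on their medians, dashed lines the medians of all genes) and median bound and unbound changes (right, log2). The podocyte list is lowest at −2.11 and the mitosis list highest at 1.57, and the bound change lies left of the unbound change for the podocyte, endothelial and tubule lists.

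More tubule genes passed as a fall in the bound than in the unbound fraction. Of 29 proximal tubule genes, 22 fell bound and 4 fell unbound, with medians of −2.69 and −1.92 and a median change of −0.99. Of 17 loop and distal tubule genes, 13 fell bound and 3 fell unbound (median change −0.81), and of 21 collecting duct genes 15 fell bound and 9 fell unbound (median change −0.85). With centred arrays these medians were −0.49, −0.27 and −0.49. Genes lower in the bound fraction numbered 9, 12 and 11 on day 5, against 1, 3 and 3 on day 0. Summed over the proximal list, linear intensity in the bound fraction ran from 51844 to 82358 on day 0 and from 11108 to 22683 on day 5.

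Egf, the growth factor precursor of the distal convoluted tubule and thick limb, read 12.48, 12.97 and 13.30 bound and 12.91, 12.95 and 13.31 unbound on day 0. On day 5 it read 8.41, 9.80 and 8.63 bound and 11.37, 10.76 and 11.07 unbound. The fractions overlapped on day 0 and did not on day 5, with a change of −1.98 ± 0.57. Aqp4, a basolateral water channel of the collecting duct, fell by 3.47 bound and 1.54 unbound for a change of −1.92 ± 0.54. Cldn10, a paracellular channel protein of the thick limb, fell by 2.75 bound for a change of −1.80 ± 0.54 and passed with 4 groups (adjusted p = 0.0429). Lrp2, the endocytic receptor megalin, fell by 4.09 bound for a change of −2.17 ± 1.02. Slc4a4 and Slc4a1, bicarbonate transporters of the proximal tubule and of intercalated cells, had changes of −1.94 ± 0.86 and −1.98 ± 0.88. Pard6b, a polarity protein of epithelia, fell by 2.45 bound for a change of −1.72 ± 0.38 and passed with 4 groups (adjusted p = 0.0256).

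Of 26 injury genes of the tubule, 12 rose and 1 fell in bound RNA and 16 rose in unbound RNA, with a median change of −0.28 that became 0.19 with centred arrays. Havcr1, the injury marker KIM-1, read 4.41, 4.04 and 4.45 bound and 6.60, 5.74 and 6.98 unbound on day 0. On day 5 it read 11.49, 11.17 and 9.32 bound and 12.71, 12.96 and 12.42 unbound. Unbound stood above bound on both days, they rose by 6.25 and 6.36, and the change in enrichment was 0.10 ± 0.80, with a 95% interval from −1.63 to 1.84. Mmp7, a matrix protease of injured epithelium, rose by 4.96 bound and 7.53 unbound for a change of −2.57 ± 0.78.

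Fgb, a chain of fibrinogen, read 3.62, 3.76 and 4.94 bound and 2.64, 1.42 and 2.12 unbound on day 0 and 5.58, 3.80 and 4.81 bound and 6.73, 8.77 and 7.41 unbound on day 5. Only its unbound rise of 5.58 passed, from a day 0 group at background, and its change of −4.95 ± 1.18 passed with 4 groups (adjusted p = 0.0291) and was −2.72 with floored values. Cdh6, a cadherin of developing tubules, and Ezr, an apical linker of actin to the membrane, had changes of −2.19 ± 0.86 and −1.85 ± 0.66 that did not pass, and that of Ezr was −1.11 with centred arrays. Slc34a2, an epithelial phosphate transporter, rose by 1.38 bound and 3.46 unbound for a change of −2.08 ± 0.55 that passed with 4 groups (adjusted p = 0.0256).

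**Figure D4:**
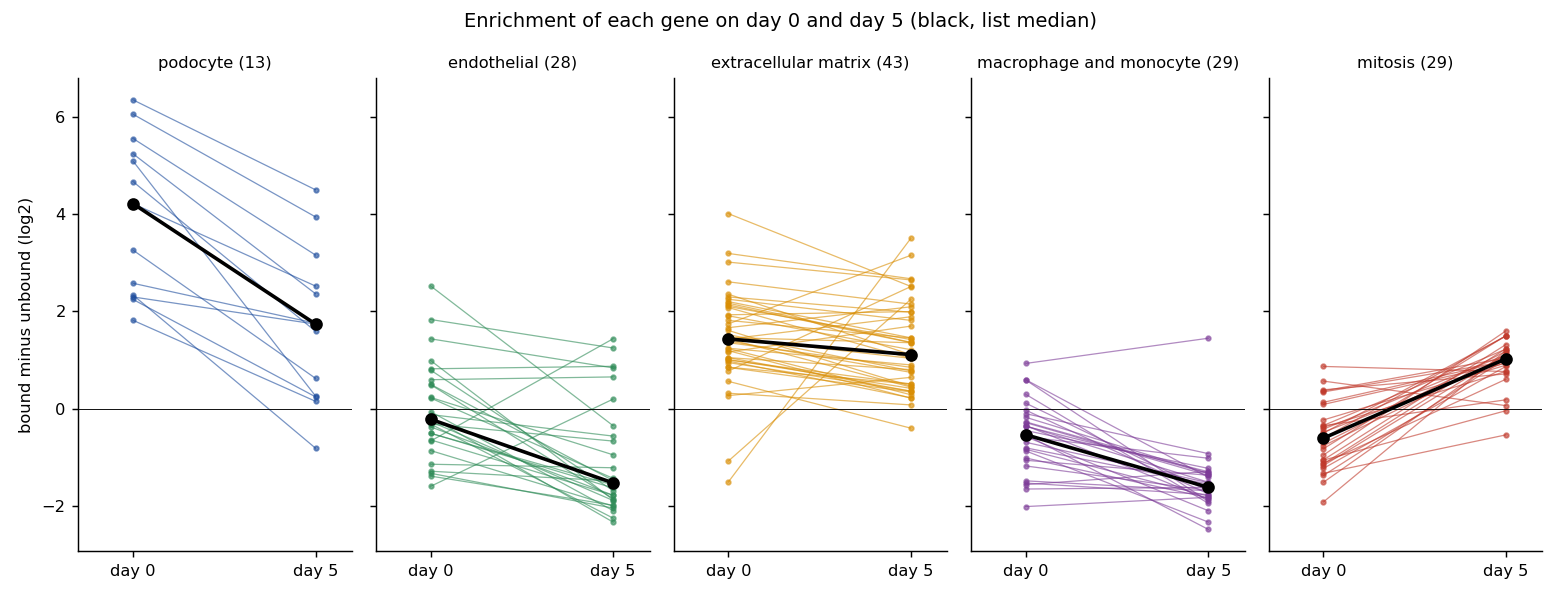
Bound minus unbound level (log2, y axis) of each gene of 5 lists on day 0 and day 5, with the list median in black. All podocyte lines run downward, most mitosis lines cross from below to above 0, and endothelial and macrophage lines end mostly below 0.

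Some named gains came from the unbound fraction. Vegfb, a vascular growth factor, read 8.28, 8.58 and 8.09 bound and 10.12, 10.24 and 9.71 unbound on day 0, then 8.37, 8.44 and 8.67 bound and 8.18, 8.23 and 8.14 unbound on day 5. The bound arrays of the 2 days overlapped, while every day 5 unbound array lay below every day 0 unbound array. The unbound fall was 1.84, the bound change 0.17, and the change in enrichment 2.01 ± 0.34 (adjusted p = 0.0647 with 5 groups and 0.0155 with 4). Septin1, a septin, fell by 2.64 and Map6, a microtubule stabilizer, by 2.37 in the unbound fraction, with bound changes of 0.43 and 0.39 that did not pass. Their changes were 3.07 ± 0.54 and 2.76 ± 0.63, with adjusted p-values of 0.0188 and 0.0254 with 4 groups.

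Others came from the bound fraction. Jph2, a junctophilin that couples calcium channels of muscle membranes, read 6.08, 6.28 and 6.56 bound and 6.29, 5.83 and 6.57 unbound on day 0, then 10.23, 10.42 and 10.27 bound and 7.03, 6.44 and 7.23 unbound on day 5. The fractions overlapped on day 0 and stood 10.6-fold apart on day 5. Its change was 3.33 ± 0.55 (adjusted p = 0.0592 with 5 groups and 0.00921 with 4). Pgr, the progesterone receptor, read 7.58, 6.85 and 7.13 bound and 7.72, 7.86 and 8.12 unbound on day 0, then 11.19, 11.26 and 11.55 bound and 9.78, 9.57 and 9.90 unbound on day 5, for a change of 2.29 ± 0.40. It rose in both fractions, by 4.15 and 1.86.

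Pde1b, a calcium-dependent phosphodiesterase, rose by 2.23 bound for a change of 2.52 ± 0.38. Tstd3, a sulfurtransferase family member, rose by 1.24 bound for a change of 2.08 ± 0.36. Obox2, an oocyte homeobox gene, read 6.20 to 6.70 on the day 5 bound arrays with the other 3 groups at background, for a fitted change of 4.11 ± 0.67. With 5 groups the adjusted p-values of Pgr, Pde1b, Tstd3 and Obox2 lay between 0.0592 and 0.0647, and with 4 groups all of them passed. Heart and skeletal muscle genes had a median change of 0.79 over 17 genes (0.84 with centred arrays, 0.31 above all genes), 7 of which had a group at background. That median was 0.02 without array 3 of the day 0 bound group, 0.38 without array 12 and 0.37 with a pseudocount of 16. Actc1, the cardiac actin, rose by 5.25 bound and 2.36 unbound for a change of 2.88 ± 0.87, and Myl4, an atrial light chain, rose by 2.11 bound for a change of 2.60 ± 0.83 that passed with 4 groups (adjusted p = 0.0254). Tnnt2, the cardiac troponin T, had a change of 3.37 ± 1.36 that did not pass and was 2.23 with floored values. Myl7, another atrial light chain, had a change of −2.83 ± 2.01, or −0.59 without array 11, on which it read 1.02 against 9.01 and 6.47 on the other day 5 bound arrays.

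The named losses likewise had different sources. Ncam1, a neural and mesenchymal adhesion molecule, read 12.13, 11.96 and 11.76 bound and 9.39, 9.47 and 9.71 unbound on day 0, then 12.41, 12.31 and 12.50 bound and 12.22, 11.92 and 12.10 unbound on day 5. Only its unbound fraction rose, by 2.55, and its change was −2.10 ± 0.36 (adjusted p = 0.0647 with 5 groups and 0.0105 with 4). St6gal1, a sialyltransferase, rose by 1.13 and Rassf2, a Ras-binding protein, by 2.48 in the unbound fraction alone, for changes of −1.52 ± 0.29 and −3.09 ± 0.60. With centred arrays the change was −1.13 for Ncam1 and −0.86 for St6gal1. Over all settings other than 1 array left out, the smallest losses were −0.77 for Ncam1 and −0.51 for St6gal1.

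Sft2d2, a membrane protein of vesicle transport, read 10.59, 10.62 and 10.84 bound and 10.38, 10.15 and 10.48 unbound on day 0, then 9.19, 9.26 and 8.93 bound and 10.51, 10.92 and 10.62 unbound on day 5. Only its bound fraction fell, by 1.56, for a change of −1.91 ± 0.31 (adjusted p = 0.0592 with 5 groups and 0.0154 with 4). Ablim3, an actin-binding LIM protein, fell by 3.70 and Crybg1, a crystallin-domain protein, by 3.92 in the bound fraction alone, for changes of −4.52 ± 0.78 and −4.82 ± 1.05. Cdc42se2, an effector of Cdc42, fell by 1.04 in the bound fraction for a change of −1.75 ± 0.33, or −1.13 with centred arrays. Ppp2r2c, a regulatory subunit of protein phosphatase 2A, fell by 1.03 bound and rose by 1.12 unbound for a change of −2.16 ± 0.40. Celsr3, a cadherin of planar polarity, had a change of −3.19 ± 0.48 that was −0.54 with floored values. Cypt12, a testis gene, had a change of −3.71 ± 0.66 that turned to 0.21 with floored values, 3 of its 4 groups being at background. With 5 groups none of these losses passed, and with 4 groups all of them did.

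Several lists lay near the median of all genes. The 32 ribosomal protein genes had a median change of 0.07, the 20 interferon genes 0.07, the 26 secretory pathway genes 0.05, the 24 fatty acid oxidation genes 0.13 and the 17 glycolysis genes −0.10. Rpl10a itself, the ribosomal protein of the tag, had a change of −0.06 ± 0.25. The 39 oxidative phosphorylation genes had a median of 0.28, with 33 above 0, against 54.3% of all genes. For 13 of them all day 5 differences exceeded all day 0 differences, against 7.35% of all genes in that direction. The part medians of the list were small, −0.10 bound and −0.41 unbound. At an unadjusted p under 0.05 there were 6 gains and no losses, against 8.04% and 6.16% of all genes. With centred arrays the ribosomal and oxidative phosphorylation medians were 0.97 and 1.07, or 0.44 and 0.54 above the median of all genes. Among immune lists, the 13 neutrophil genes had a median of 0.29 that became −0.39 without array 11 and −0.19 without array 15. The 16 lymphocyte genes had a median of −0.62 that was −0.14 without array 5 of the day 0 unbound group and −0.24 without array 12. With floored values the lymphocyte median was −0.09.

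Signalling and immune lists had medians of −0.29 for 16 TGF-beta response genes, −0.17 for 13 hedgehog genes, −0.54 for 28 inflammatory genes, −0.47 for 16 complement genes and −0.20 for 24 immediate early genes. Lists of other cell types had medians of −0.44 for 5 juxtaglomerular and mesangial genes, −0.02 for 13 urothelial genes, −0.20 for 3 erythroid genes, 0.49 for 12 Schwann cell and neuronal genes and 0.37 for 5 adipocyte genes. With 1 array left out at a time the adipocyte median ranged from −0.64 to 1.00, the erythroid from −1.04 to 0.33, the hedgehog from −0.55 to 0.15 and the urothelial from −0.32 to 0.42, so none of these 4 kept a direction. The Schwann cell and neuronal median ranged from 0.12 to 0.82. The interferon, secretory and glycolysis medians also changed sign, within −0.19 to 0.16, −0.10 to 0.19 and −0.14 to 0.05. Losses at an unadjusted p under 0.05 numbered 4 of the 28 inflammatory, 4 of the 24 immediate early and 3 of the 16 TGF-beta response genes, and gains numbered 1, 2 and 0, against 6.16% and 8.04% of all genes. With centred arrays the medians of the TGF-beta response, complement, immediate early, juxtaglomerular, urothelial and glycolysis lists were 0.37, 0.01, 0.45, 0.15, 0.07 and 0.60, so these 6 turned positive while all genes stood at 0.53.

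Across the genome, enrichment on day 0 and on day 5 overlapped in part. Of 811 genes higher in the bound fraction on day 0 and 1075 on day 5, 411 were shared, which is 50.7% of the former and 38.2% of the latter. Of 691 genes lower on day 0 and 1305 on day 5, 238 were shared (34.4% and 18.2%). Genes called in opposite directions numbered 3 that were higher on day 0 and lower on day 5, and 13 that were lower and then higher. The correlation of the 2 enrichments across 16864 genes was 0.484, a description over genes that share their arrays. Without the bright arrays only 1 gene passed for enrichment on day 5, against 2380, with 2 arrays left in each day 5 group, and with 1 array left out at a time 844 to 2414 passed.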

How the data were processed

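The 15 arrays are one-colour Affymetrix arrays of polysomal RNA amplified with the NuGen WT-Ovation kit, per the labels' protocols. The values deposited by the authors are linear probe set intensities. How probes were summarised, corrected for background and scaled is not given in the sources used here. Their column medians differ, so values were taken as log2(value + 1) and quantile normalized over all 15 arrays. Of 45101 probe sets, 64 controls were left out and 34945 matched 1 gene (34741 by Entrez identifier), 932 several and 9160 none. The probe set with the highest mean stood for its gene. Several probe sets matched 9010 genes, so a change given for such a gene is that of 1 of them. Of 18193 genes, 16864 exceeded each array's 25th percentile in 3 or more arrays and entered the test, made in R 4.3.3 by limma 3.58.1. The model had a coefficient for every group, a constant prior (prior df 2.32, residual df 10) and two-sided p-values adjusted by Benjamini-Hochberg over all genes. Each of 31 lists was described by counts and medians. Values at or under the highest of 27 negative controls of an array were called at background. The script was tested on simulated data.

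Named genes were the 12 gains and the 12 losses of smallest p, clone names left out (only Kcnmb4 and Cenph of them passed with 5 groups), up to 4 genes of each list with the largest change, landmark genes of the tissue, and up to 4 genes per combination of parts. Genes named outside this rule are said to be so where they appear. Figures were drawn with matplotlib 3.10.9. The comparison, lists and genes were chosen with earlier results of these data known. Alternatives covered normalization, filter, probe set choice, pseudocount, floor, groups fitted, prior, array weights, brightness and each array left out. The number of arrays, 3 a group, limits the precision.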

Additional observations from a re-analysis of the deposited data

Results flagged for a closer look

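The difference between bound and unbound RNA itself differed between day 0 and day 5, by limma's test of that difference, for 3 genes. The change in enrichment was 5.66 for Kcnmb4, 3.75 for C130073F10Rik and 3.35 for Cenph. Kcnmb4 passed in all 12 fits that left out 1 array, with adjusted p-values from 0.00396 to 0.0275, Cenph passed in 5 of them, and C130073F10Rik passed in 6. Each of the 3 had at least 1 group at the level of the negative controls, and C130073F10Rik had all 4 there.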

How the results depend on the processing

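No paired analysis was possible because each array carries a replicate number of its own, so the labels tie no bound array to an unbound one. The count of genes that passed for the change in enrichment, 3 with 5 groups, was 1 with arrays centred on their medians, 349 with only the 12 arrays normalized and fitted, 17 with a filter at the 50th percentile, 47 with a pseudocount of 16, 67 with values floored at the negative controls, 338 with only the 4 groups fitted, 59 with a trended and robust prior, 1936 with array weights, 1 at an adjusted p under 0.01, and 1 to 7 with 1 array left out. The 338 of the 4-group fit became 900 with centred arrays, 911 with floored values, 1 without the bright arrays and 31 to 926 with 1 array left out. These settings of the 4-group fit were chosen after seeing the data. Bound changes, 3996 in all, numbered 6157 with array weights, 2117 without the bright arrays, 1720 at 0.01 and 2472 to 3558 with 1 array left out. Unbound changes, 1747 in all, numbered 2800 with 12 arrays, 2749 with 4 groups, 5280 with array weights, 599 without the bright arrays, 723 at 0.01 and 770 to 1842 with 1 array left out. For the sum of both changes, 4864 became 7561, 2924 and 2692 with array weights, without the bright arrays and at 0.01. Day 0 enrichment, 1502 genes, gave 845 with centred arrays, 2653 with 12 arrays, 2628 with 4 groups, 4306 with array weights, 313 without the bright arrays, 428 at 0.01 and 520 to 1606 with 1 array left out. Day 5 enrichment, 2380 genes, gave 3834 with 12 arrays, 3802 with 4 groups, 6038 with array weights, 1 without the bright arrays, 575 at 0.01 and 844 to 2414 with 1 array left out. The cause of these shifts was not tested.

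Of 2130 values of 89 named genes under other settings, 2121 kept their direction. Settings that altered only the filter, the groups fitted or the prior left each change as it was, so no direction could turn there. Many of these genes were also named for a large change. The count is therefore no test of direction. The change turned to 0.046 for Acta2 with centred arrays and to 0.21 for Cypt12 with floored values. For Havcr1 it turned to −0.85 with the mean of all probe sets and to −0.47 with a pseudocount of 16, and ranged from −0.31 to 0.77 with 1 array left out. Over all settings other than 1 array left out, some changes became much smaller. They shrank to −0.52 for Aqp4, −0.66 for Ezr, −0.88 for Sft2d2, −1.66 for Synpo, 1.10 for Fbln2 and 1.25 for Psrc1. Those of Jph2, Septin1 and Vegfb stayed at or above 3.16, 2.79 and 1.81. Kcnmb4 alone of the named genes passed without the bright arrays with 5 groups fitted (adjusted p = 0.0483).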

Other observations

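The day 2 bound arrays, which have no unbound counterpart and so no enrichment, gave levels of some of the same genes (normalized log2 intensity, mean ± SD, n = 3). Cenph stood at 8.33 ± 0.58 and Ccnb2 at 9.72 ± 0.62 on day 2, Col1a1 at 12.77 ± 0.11, Wt1 at 10.74 ± 0.31 and Synpo at 11.76 ± 0.34. Kcnmb4 was at 1.74 ± 0.73, a background level, P4ha3 at 4.49 ± 1.27, Fap at 6.30 ± 0.36 and Jph2 at 7.96 ± 0.90.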
